A study of Danio rerio with 7 samples.

Results

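The genes described here were the 150 well-expressed genes whose level in the fgf20a mutant hindbrain stood furthest below the level in every control. They were chosen by their measured levels, out of 32189 gene IDs in the count table. Counts were scaled to CPM (counts per 1000000 counts of the library), and 9173 IDs had at least 5 CPM in all 7 libraries, not counting 2 IDs named RRM2 that the choice left out. These were ranked by the lowest Cnt level divided by the highest Fgf20aHOM level, and the 150 with the highest ratio were taken. The ratio ran over the members down to 1.24, with a median of 1.40 and a highest value of 5.91. The difference between the groups in these genes was therefore fixed by the choice and is given as a description only. At the depth of these libraries, 5 CPM stood for 265 to 349 counts, so no level rested on fewer counts than that. CPM does not account for gene length, and levels were compared between libraries and not between genes.

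RNA was measured by bulk sequencing in 3 Fgf20aHOM and 4 Cnt libraries, each made from the dissected hindbrain of 1 zebrafish embryo at 24 hpf (hours after fertilisation). Fgf20aHOM embryos were homozygous for a mutation in fgf20a and came from crosses between homozygous parents, and Cnt embryos were wild type of the LondonAB strain. All embryos were kept at the same temperature, no littermate control was among the samples, and the line and the genotype cannot be told apart. The labels name tissue around the hindbrain as well, and the study used qPCR to select clean dissections. The markers of hindbrain progenitors summed to 2656 to 2861 CPM in Fgf20aHOM and 1763 to 2709 CPM in Cnt, and none of the 6 was at 0 in any library. Of the 5 that were well expressed, 3 were higher in all Fgf20aHOM than in all Cnt libraries (60%, against 11.4% of all well-expressed IDs), and 0 were lower. In bulk tissue a lower level can come from fewer cells of a type or from less RNA per cell, and these cannot be told apart. Whole libraries held 52900433 to 55915518 counts in Fgf20aHOM and 59800936 to 69801072 in Cnt. A pair of IDs carry the name FGF20, and both overlapped between the groups, at 3.01 to 4.85 and 4.83 to 9.53 CPM in Fgf20aHOM, against 1.93 to 6.72 and 3.44 to 15.7 CPM in Cnt. The transcript of the mutated gene thus did not check the labels.

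Fgf20 is a secreted fibroblast growth factor. In the zebrafish hindbrain it is made by neurons at the centre of each segment and acts on the progenitors beside them, which stay undifferentiated. Fgf receptors signal through the MAP kinase cascade to transcription factors of the Ets family and to feedback inhibitors. Zebrafish carry many duplicated genes, left from a duplication of the whole genome in an ancestor of the teleost fishes, and many tandem arrays of near-identical genes, such as those of C2H2 zinc fingers.

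Mean levels of the members had a median of 16.8 CPM in Fgf20aHOM and 38.6 CPM in Cnt, whereas the other well-expressed IDs had medians of 41.6 CPM in Fgf20aHOM and 38.7 CPM in Cnt. In the controls, therefore, the members were expressed at the level that was usual among well-expressed genes. The Fgf20aHOM mean divided by the Cnt mean was 0.459 in the median member and ranged from 0.116 to 0.707. It was at most 0.5 in 91 members and at most 0.25 in 12. The ratio of the rule was 3 or more in 8 members, 2 to 3 in 14, 1.5 to 2 in 36 and below 1.5 in 92. Together the members took 3625, 4042 and 4879 CPM of the libraries Fgf20aHOM F2, F3 and F4, against 10840, 9686, 10908 and 10417 CPM of Cnt 1 to 4.

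**Figure D1:**
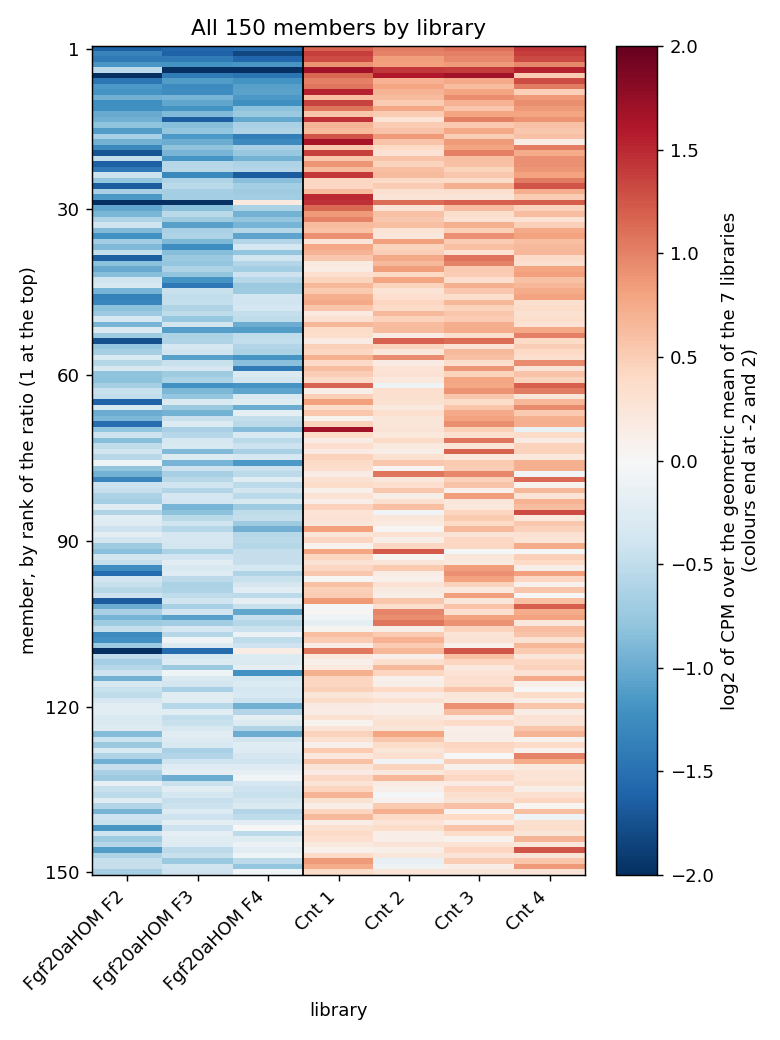
Each row is 1 of the 150 members in the order of the ratio (highest at the top), and each column 1 library, Fgf20aHOM on the left and Cnt on the right of the black line. Colour gives the log2 of the CPM over the gene's geometric mean in the 7 libraries (blue lower, red higher). The contrast was strongest in the top 30 rows, and single cells stood apart, such as Fgf20aHOM F4 in pfn2b (344 CPM) and hmgn1b (758 CPM).

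The members also varied less within the groups than other genes did. Their coefficient of variation (SD over the mean) had a median of 15.4% in Fgf20aHOM and 15.7% in Cnt, while it was 19.8% in Fgf20aHOM and 25.5% in Cnt among the other well-expressed IDs. A ratio of extremes selects genes with little spread, so this too follows from the choice. Fgf20aHOM F2 was the lowest of its group in 78 members (52%, and 42.2% of the other IDs), and Cnt 2 was the lowest of its group in 57 (38%, and 26.2% of the others). Cnt 4, the lowest library in 42.4% of the other IDs, was so in 30 members (20%).

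Of 9173 well-expressed IDs, 654 (7.13%) were lower in all Fgf20aHOM than in all Cnt libraries, and the 150 members are among these by construction. In the other direction 1043 IDs (11.4%) were higher in all Fgf20aHOM libraries, 309 of them by at least the ratio of the last member. Genes lower in every mutant library were thus fewer than genes higher in every mutant library, also with levels scaled by TMM factors (794 lower and 965 higher) or by size factors (830 lower and 945 higher). In the edgeR quasi-likelihood test, adjusted by the Benjamini-Hochberg method, calls needed an adjusted p not above 0.01 together with a 2-fold change or more, and every library of at least 1 group had to exceed a normalised count of 30. The test called 41 of 19589 genes lower (0.209%) and 45 higher (0.230%) in Fgf20aHOM. Of the members 13 were called lower, and no other ID of the 9173 was. At an adjusted p of at most 0.05, edgeR found 171 genes lower (0.873%), 46 of them members, and 125 higher (0.638%). Since the members were taken from this contrast, nothing is read from these counts. The 13 calls fell to 4 without Cnt 1 or without Cnt 3, to 11 without Cnt 2 and to 7 without Cnt 4. They fell to 5 without Fgf20aHOM F2, to 2 without F4 and to 0 without F3. An unadjusted edgeR p under 0.05 was found in 149 members with all libraries and in 141 without F3. Such low p values follow from the choice. The fitted log2 fold change (Fgf20aHOM over Cnt) of the members had a median of -1.21, a range of -3.22 to -0.59 and a median SE of 0.28. Over all tested genes its median was -0.05.

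A reading that the choice fixed only in part came from leaving out each library in turn. The 150 IDs with the highest ratio in 6 libraries were taken again, and their level was read in the library that had no part in the choice. With Fgf20aHOM F2 left out, 135 of the 150 IDs lay below all 4 Cnt libraries in F2, against 32.9% of all IDs that had at least 5 CPM in the other 6. For F3 these values were 139 IDs and 18.04% of all, and for F4 134 IDs and 14.8% of all. With a Cnt library left out, the chosen IDs lay above all 3 Fgf20aHOM libraries in 136 cases in Cnt 1, in 130 in Cnt 2, in 138 in Cnt 3 and in 129 in Cnt 4. The shares of all IDs on that side ran from 28.1% in Cnt 1 to 31.3% in Cnt 2. At least 129 of 150 chosen IDs thus stood on the side of their group in a library that had not been used, for each of the 7 libraries. The libraries it was set against had been used in the choice, which favours that side, and the shares of all IDs are over genes that were not chosen, so the gap between them is a description.

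**Figure D2:**
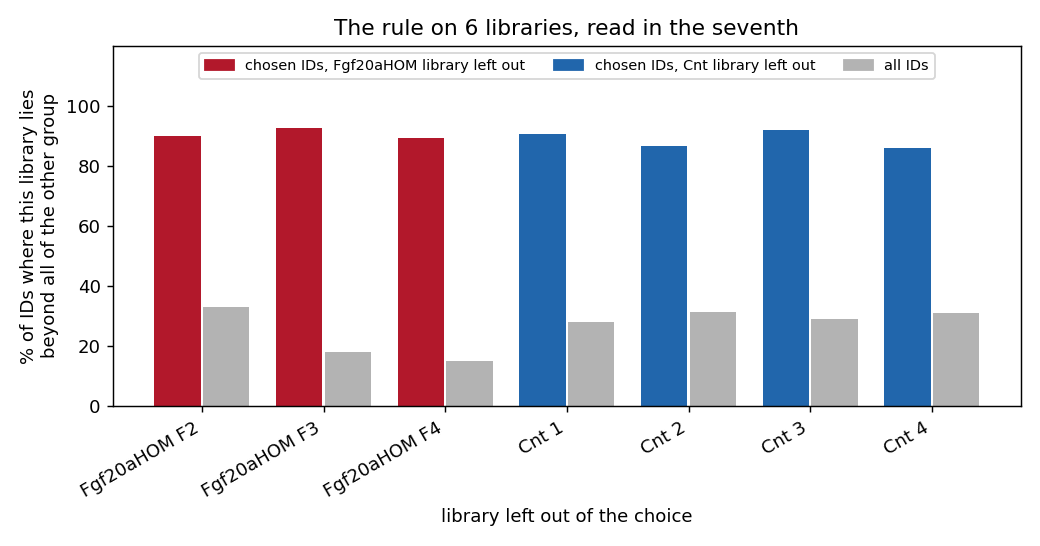
For each library (x axis), coloured bars show the percent of the 150 IDs chosen on the other 6 libraries in which the library left out lay beyond all libraries of the other group, and grey bars the same percent over all IDs with at least 5 CPM in the other 6. Red bars are Fgf20aHOM and blue bars Cnt libraries. Coloured bars lie between 86% and 92.7%, and grey bars between 14.8% and 32.9%. The libraries of the other group had been used in the choice, which favours high coloured bars, so the gap is a description.

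The names of the members differed from those of other expressed genes. Symbols could be found for 126 members. Of the 150, 24 IDs (16%) had no symbol, 27 (18%) had a provisional clone name that starts with si: or zgc:, and 99 (66%) had a gene name. Among the other 9023 well-expressed IDs these shares were 3.06%, 5.79% and 91.2%. IDs without a gene name were denser at the top. Of the 30 members with the highest ratios 14 had no symbol, 9 a clone name and 7 a gene name, whereas gene names made up 92 of the remaining 120. All 8 members with a ratio of 3 or more bar histh1l1 were IDs without a symbol or with a clone name. Over all 150 members the median log2 fold change was -1.57 without a symbol, -1.34 with a clone name and -1.12 with a gene name.

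**Figure D3:**
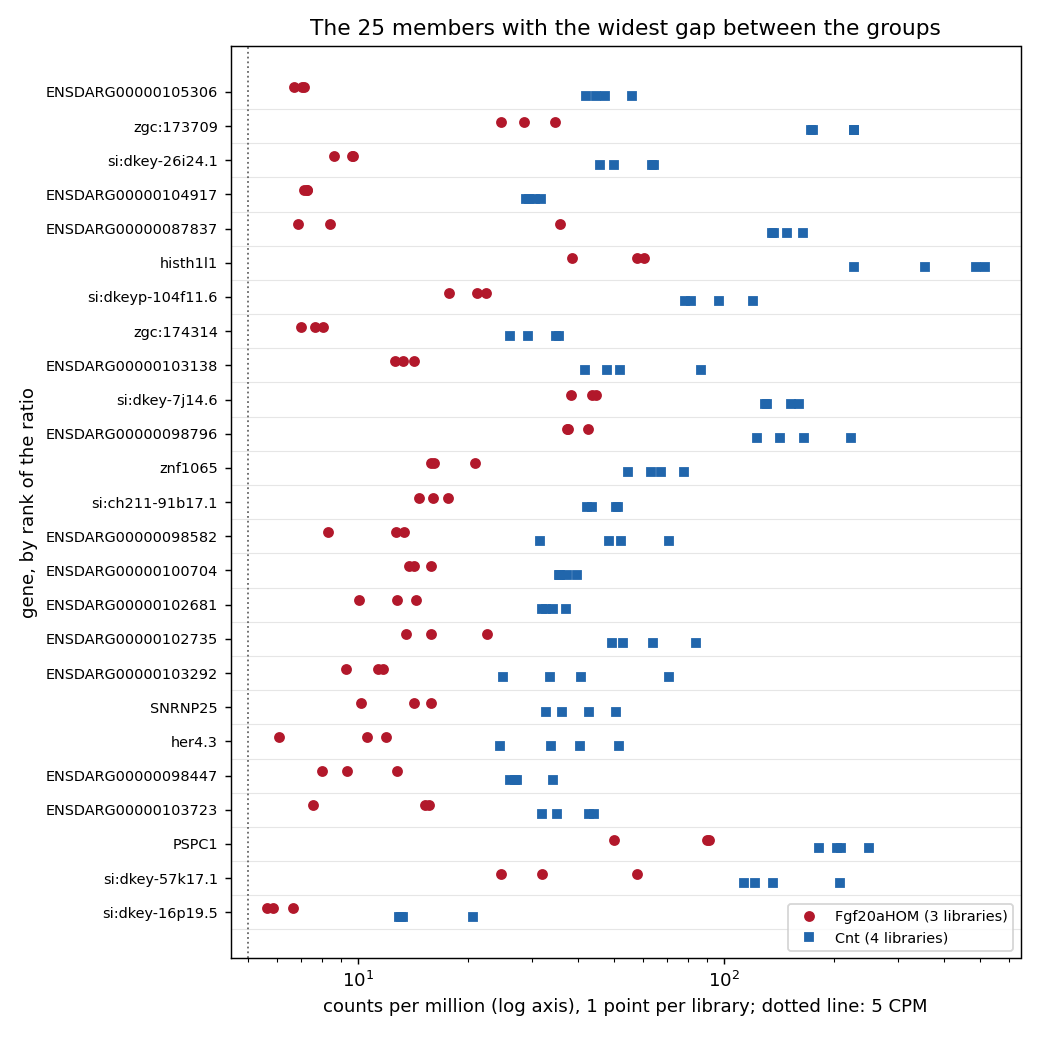
Points give the CPM of each library (log axis) for the 25 members with the highest ratio, from top to bottom. Red circles are the 3 Fgf20aHOM and blue squares the 4 Cnt libraries, and the dotted line marks the minimum of 5 CPM. All 25 show a gap between the groups by construction, and the widest, in ENSDARG00000105306, was a ratio of 5.91 between the nearest libraries of the groups.

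The widest gap belonged to ENSDARG00000105306, an ID without a symbol. It had 6.69, 7.03 and 7.13 CPM in Fgf20aHOM F2, F3 and F4, against 47.3, 42.2, 44.8 and 56.1 CPM in Cnt 1 to 4. The 3 mutant hindbrains lay within 1 CPM of each other, and its fitted log2 fold change was -2.87 ± 0.26 (SE). Next came zgc:173709 (ENSDARG00000090160), which had 34.6, 28.4 and 24.7 CPM in Fgf20aHOM F2, F3 and F4, against 227, 173, 175 and 227 CPM in Cnt 1 to 4. Cnt 1 and Cnt 4 were its highest controls, and its log2 fold change was -2.88 ± 0.26 (SE). The third, si:dkey-26i24.1 (ENSDARG00000102673), had 9.73, 9.64 and 8.62 CPM in Fgf20aHOM F2, F3 and F4, against 63.8, 45.9, 50.1 and 64.6 CPM in Cnt 1 to 4, and the fourth, ENSDARG00000104917, had 7.26, 7.12 and 7.26 CPM in Fgf20aHOM F2, F3 and F4, against 30.5, 28.8, 29.4 and 31.6 CPM in Cnt 1 to 4. Their mutants lay close together, and their controls did so in ENSDARG00000104917. The log2 fold changes were -2.68 ± 0.27 and -2.15 ± 0.25 (SE). In ENSDARG00000087837 the mutants did not lie together, with 35.8, 6.88 and 8.39 CPM in Fgf20aHOM F2, F3 and F4, against 165, 137, 135 and 149 CPM in Cnt 1 to 4. Fgf20aHOM F2 was several times above F3 and F4 there, and the SE of its log2 fold change of -3.22 ± 0.55 was among the largest of the members. What these IDs encode was not given in the sources used here.

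Further clone names near the top followed the same pattern at lower ratios. The ID si:dkeyp-104f11.6 had 17.7, 22.4 and 21.2 CPM in Fgf20aHOM F2, F3 and F4, against 96.95, 78.2, 81.5 and 119.9 CPM in Cnt 1 to 4, with a log2 fold change of -2.30 ± 0.28 (SE). For zgc:174314 the levels were 7.64, 6.99 and 8.02 CPM in Fgf20aHOM F2, F3 and F4, against 35.4, 29.1, 26.04 and 34.7 CPM in Cnt 1 to 4. In both the mutants lay closer together than the controls. In si:dkey-7j14.6 they were 43.6, 44.7 and 38.3 CPM in Fgf20aHOM F2, F3 and F4, against 129.8, 131, 161 and 153 CPM in Cnt 1 to 4, and in si:ch211-91b17.1 they were 14.7, 16.01 and 17.7 CPM in Fgf20aHOM F2, F3 and F4, against 43.5, 42.3, 50.9 and 51.3 CPM in Cnt 1 to 4. The log2 fold changes of these 3 were -2.15 ± 0.27, -1.85 ± 0.22 and -1.63 ± 0.24 (SE). Of the 13 members that edgeR called, 5 had no symbol, 6 a clone name and 2 a gene name, histh1l1 and znf1065.

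Some members act on chromatin and RNA. The gene histh1l1 (ENSDARG00000035519) is named as a linker histone, the kind that binds DNA between nucleosomes. It had 38.4, 60.6 and 58.03 CPM in Fgf20aHOM F2, F3 and F4, against 355, 488, 516 and 227 CPM in Cnt 1 to 4, and its log2 fold change was -2.97 ± 0.32 (SE). Its control level varied more than its mutant level, and all 4 controls were above all mutants. It was 1 member of 12 well-expressed genes with histone names, and none of the other 11 was lower in all Fgf20aHOM libraries. On a list of linker histone names, added later, the 2 other well-expressed genes had a median log2 fold change of -1.17. The product of hmgn1b binds nucleosomes and loosens chromatin. The hmgn1b gene had 160.1, 236 and 758 CPM in Fgf20aHOM F2, F3 and F4, against 1433, 1085, 1637 and 987 CPM in Cnt 1 to 4, and its log2 fold change was -1.82 ± 0.49 (SE). F4 stood well above F2 and F3 and nearest to Cnt 4. PSPC1, an RNA-binding protein of nuclear paraspeckles, had 49.99, 91.2 and 89.98 CPM in Fgf20aHOM F2, F3 and F4, against 209.5, 203, 182 and 249 CPM in Cnt 1 to 4, with F2 lowest and a log2 fold change of -1.54 ± 0.29 (SE). SNRNP25, a protein of the minor spliceosome that removes rare introns, had 10.2, 14.2 and 15.8 CPM in Fgf20aHOM F2, F3 and F4, against 36.2, 32.7, 42.9 and 50.7 CPM in Cnt 1 to 4, and its log2 fold change was -1.69 ± 0.30 (SE).

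Zinc finger genes with a number in their name (znf, zbtb and the like) made up 136 of the well-expressed IDs, and 4 of them were members. znf1065 had 15.9, 16.2 and 20.96 CPM in Fgf20aHOM F2, F3 and F4, against 77.9, 63.3, 54.8 and 67.2 CPM in Cnt 1 to 4, and its log2 fold change was -1.98 ± 0.25 (SE). znf1040 had 43.3, 26.8 and 30.1 CPM in Fgf20aHOM F2, F3 and F4, against 88.2, 86.2, 93.3 and 79.2 CPM in Cnt 1 to 4, and its log2 fold change was -1.47 ± 0.22 (SE). In both, the groups were well apart, and F2 was the highest mutant in znf1040. The other 2 were znf989 (log2 fold change -0.91 ± 0.27, SE) and ZBTB1 (-1.57 ± 0.32, SE), where Cnt 1 was 18.98 CPM and the other controls were 34.9 to 38.2 CPM. In this class the test called 7 genes lower (2.39%, against 0.209% of all tested genes) and 9 higher (3.07%, against 0.230%) in Fgf20aHOM among 293 tested, so called genes lay on both sides. Of the 136 well-expressed zinc finger genes, 7 (5.15%, against 7.13% of all well-expressed IDs) were lower in all Fgf20aHOM libraries. Higher in all were 18 (13.2%, against 11.4%). Without the members 3 of 132 (2.27%) were lower, a share that cannot be set against the 7.13%, which includes the members. Genes of such arrays share sequence, and reads that fit several copies were divided between them by the counting.

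The bHLH repressors of the her4 family are targets of Notch and keep neural progenitors from differentiating. Of 5 her4 copies only her4.3 was a member, with 6.098, 10.6 and 11.9 CPM in Fgf20aHOM F2, F3 and F4, against 51.7, 24.5, 40.6 and 33.7 CPM in Cnt 1 to 4, and its log2 fold change was -2.06 ± 0.36 (SE). The mutants stayed below 12 CPM and the controls above 24 CPM, and no other copy was lower in all Fgf20aHOM libraries. The copy her4.4 had 67.8, 133 and 176 CPM in Fgf20aHOM F2, F3 and F4, against 323, 149, 211 and 223 CPM in Cnt 1 to 4, with the groups overlapping (log2 fold change -0.93 ± 0.37, SE, adjusted p = 0.258 by edgeR). The other 3 copies had log2 fold changes of 0.13 ± 0.39 in her4.1, -0.09 ± 0.36 in her4.2 and 0.14 ± 0.34 in her4.5 (SE), none of which passed the test (adjusted p = 0.91, 0.935 and 0.883 by edgeR). Summed over the 5 copies, the family had 469, 992 and 1328 CPM in Fgf20aHOM F2, F3 and F4, against 1217, 797, 837 and 1190 CPM in Cnt 1 to 4. The sums overlapped, with means of 929 ± 433 CPM in Fgf20aHOM and 1010 ± 224 CPM in Cnt (SD, n = 3 and 4). The sum could not show the lower level of her4.3, since her4.3 made up only 3.72% of the mean Cnt sum. How reads were split between the copies was not tested.

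F-box proteins pick substrates for ubiquitin ligases. fbxo44.5 was a member, with 11.2, 26.95 and 31.2 CPM in Fgf20aHOM F2, F3 and F4, against 64.2, 52.4, 41.3 and 53.97 CPM in Cnt 1 to 4. Here F2 was below F3 and F4, and the log2 fold change was -1.27 ± 0.36 (SE). Among the 6 other copies with this name, all below the minimum of 5 CPM in some library except fbxo44.1, the test called fbxo44.9 lower. fbxo44.9 had 0.018, 0 and 0.057 CPM in Fgf20aHOM F2, F3 and F4, against 12.1, 13.04, 10.6 and 17.1 CPM in Cnt 1 to 4, so it was close to 0 in every mutant and above 10 CPM in every control (adjusted p = 5.0e-04 by edgeR). fbxo44.8 had 2.88, 2.58 and 4.896 CPM in Fgf20aHOM F2, F3 and F4, against 15.6, 9.54, 12.2 and 7.75 CPM in Cnt 1 to 4, and it did not pass the test (adjusted p = 0.0595 by edgeR). fbxo44.7 was higher in Fgf20aHOM F3 and F4 than in any control and did not pass the test either (log2 fold change 0.70 ± 0.39, SE, adjusted p = 0.428 by edgeR). The 7 copies together had 37.6, 59.6 and 75.8 CPM in Fgf20aHOM F2, F3 and F4, against 126, 108, 94.4 and 114 CPM in Cnt 1 to 4, and these sums did not overlap, with means of 57.7 ± 19.1 CPM in Fgf20aHOM and 111 ± 13.2 CPM in Cnt (SD, n = 3 and 4). The chosen member fbxo44.5 made up 47.9% of the mean Cnt sum of its family, and her4.3 made up 3.72% of that of her4. Without the member, the other 6 fbxo44 copies summed to 26.4 to 44.6 CPM in Fgf20aHOM and 53.03 to 61.9 CPM in Cnt, and the other 4 her4 copies to 463 to 1316 CPM in Fgf20aHOM and 772 to 1166 CPM in Cnt. The her4 and fbxo44 copies were picked after their values were seen.

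Members with a role in protein folding and glycosylation in the endoplasmic reticulum (ER) were brought together after the members had been seen. They numbered 8: ALG14, DNAJC1, DPM1, MGAT4B, PDIA6, POMT1, PRKCSH and RCN2. PDIA6, a disulphide isomerase that helps secreted proteins fold, had 106, 126 and 132 CPM in Fgf20aHOM F2, F3 and F4, against 293, 238, 274 and 333 CPM in Cnt 1 to 4, and its log2 fold change was -1.32 ± 0.23 (SE). PRKCSH, a subunit of the glucosidase that trims new N-glycans, had 75.1, 127 and 167 CPM in Fgf20aHOM F2, F3 and F4, against 207, 217, 251 and 216 CPM in Cnt 1 to 4, and its log2 fold change was -0.93 ± 0.28 (SE). In PDIA6 the groups were tight, while in PRKCSH Fgf20aHOM F4 came near the controls. DPM1, which makes the mannose donor for glycosylation in the ER, had 23.3, 34.4 and 34.4 CPM in Fgf20aHOM F2, F3 and F4, against 67.9, 43.3, 63.4 and 75.7 CPM in Cnt 1 to 4. POMT1, which starts O-mannosylation, had 9.84, 18.4 and 23.5 CPM in Fgf20aHOM F2, F3 and F4, against 44.97, 52.4, 65.7 and 40.2 CPM in Cnt 1 to 4. ALG14, an early enzyme of N-glycan synthesis, had 11.6, 5.34 and 8.58 CPM in Fgf20aHOM F2, F3 and F4, against 22.7, 19.4, 23.3 and 22.6 CPM in Cnt 1 to 4. F2 was the lowest mutant in DPM1 and POMT1, and F3 in ALG14. Among 52 well-expressed genes on this list, 17 were lower in all Fgf20aHOM libraries (32.7%, against 7.13% of all well-expressed IDs) and 0 were higher (11.4% of all). Without the members this was 9 of 44 genes (20.5%), with a median log2 fold change of -0.31. The edgeR test called 0 of the 60 tested genes of the list and found 3 lower at an adjusted p of at most 0.05. At an unadjusted p under 0.05 it found 18 lower and 2 higher. The share of all tested genes at that p is not given here, so these counts have no background. DESeq2 called 4 lower, against 376 of all genes, and limma-voom 1, against 77 of all genes. Because the list was built around members, its counts are no independent evidence.

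Mitochondrial proteins formed the next group. Of 101 well-expressed genes of oxidative phosphorylation, 4 were members. NDUFV1 is a core subunit of complex I of the respiratory chain and had 117, 126 and 109.6 CPM in Fgf20aHOM F2, F3 and F4, against 191, 183, 171 and 162 CPM in Cnt 1 to 4. NDUFAF4 and NDUFAF6 help to assemble complex I and had log2 fold changes of -0.69 ± 0.26 and -1.53 ± 0.34 (SE). NDUFV1 moved little within each group, with a log2 fold change of -0.67 ± 0.19 (SE). The fourth, atp5mj, a small subunit of ATP synthase, had 61.6, 92.8 and 114 CPM in Fgf20aHOM F2, F3 and F4, against 142, 145, 181 and 319 CPM in Cnt 1 to 4. Its highest control was far above the others and its mutants spread as well, with a log2 fold change of -1.25 ± 0.38 (SE). In this class 9 genes (8.91%) were lower and 4 (3.96%) higher in all Fgf20aHOM libraries, against 7.13% and 11.4% of all well-expressed IDs. None of the 72 well-expressed mitochondrial ribosomal proteins was a member, and 8 of them (11.1%) were lower and 2 (2.78%) higher in all Fgf20aHOM libraries. PGAM5, a phosphatase of the mitochondrial membrane, had 141, 121 and 129 CPM in Fgf20aHOM F2, F3 and F4, against 207, 176, 199 and 226 CPM in Cnt 1 to 4, and its log2 fold change was -0.73 ± 0.20 (SE). The edgeR test called 0 genes of either class. At an unadjusted p under 0.05 it found 10 lower and 3 higher genes of oxidative phosphorylation, and 9 lower and 2 higher mitochondrial ribosomal proteins. These counts too have no share of all tested genes beside them. DESeq2 called 1 gene of oxidative phosphorylation lower and 0 mitochondrial ribosomal proteins, against 376 of all genes lower. With limma-voom 0 of either class were called, against 77 of all genes lower.

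Enzymes that handle peroxides gave 2 members among 33 well-expressed genes of glutathione and redox metabolism. The class went by name patterns and can miss genes, such as the member MGST1 (log2 fold change -1.21 ± 0.34, SE). PRDX3 is the peroxiredoxin of mitochondria, and it had 86.3, 49.8 and 46.9 CPM in Fgf20aHOM F2, F3 and F4, against 174, 204, 159 and 133 CPM in Cnt 1 to 4, and its log2 fold change was -1.54 ± 0.26 (SE). GPX7, a peroxidase of the ER, had 14.9, 16.4 and 12.5 CPM in Fgf20aHOM F2, F3 and F4, against 28.96, 24.97, 28.3 and 42.7 CPM in Cnt 1 to 4, and its log2 fold change was -1.20 ± 0.30 (SE). F2 was the highest mutant in PRDX3, as it was in 38 of the 150 members. The class had 5 genes (15.2%, against 7.13% of all well-expressed IDs) lower and 1 (3.03%, against 11.4%) higher in all Fgf20aHOM libraries. Without the members 3 of 31 (9.68%) were lower, a share that cannot be set against the 7.13%, which includes the members. AIFM2, a reductase that protects lipids from oxidation in human cells, was named after its values had been seen and had 25.8, 20.1 and 37.3 CPM in Fgf20aHOM F2, F3 and F4, against 81.5, 64.7, 72.3 and 74.4 CPM in Cnt 1 to 4.

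The ubiquitin system held 5 members of 156 well-expressed genes, namely RNF126, RNF128, RNF146, UBE2S and fbxo44.5. UBE2S, the enzyme that extends ubiquitin chains for the anaphase-promoting complex, had 114, 89.4 and 68.4 CPM in Fgf20aHOM F2, F3 and F4, against 149, 147, 252 and 195 CPM in Cnt 1 to 4, and its log2 fold change was -1.13 ± 0.28 (SE). RNF128, a membrane ubiquitin ligase, had 11.4, 8.85 and 9.24 CPM in Fgf20aHOM F2, F3 and F4, against 25.6, 22.6, 19.6 and 25.4 CPM in Cnt 1 to 4, and its log2 fold change was -1.34 ± 0.27 (SE). RNF126 and RNF146, both ubiquitin ligases, had log2 fold changes of -0.93 ± 0.22 and -1.12 ± 0.27 (SE). In the class 9 genes (5.77%, against 7.13% of all well-expressed IDs) were lower and 29 (18.6%, against 11.4%) higher in all Fgf20aHOM libraries. The calls were too few to read a direction from. Of 251 tested genes edgeR called 1 lower (0.398%, against 0.209% of all tested genes) and 0 higher. With limma-voom 1 was lower, against 77 of all genes, and 0 higher. DESeq2 called 7 lower, against 376 of all genes, and 3 higher. At an unadjusted edgeR p under 0.05, 13 were lower and 32 higher, again without a share of all tested genes to set beside them.

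Over all 33 classes of gene names, 15 held a member, and only 27 members belonged to any class. Members made up 1.64% of the well-expressed IDs. Counting well-expressed genes, classes with no member included the 87 ribosomal proteins and 116 genes of DNA replication and the cell cycle. The 117 genes named for splicing and RNA binding and the 89 chromatin enzymes held none either. Classes went by name patterns and missed genes, such as the members SNRNP25, of the minor spliceosome, and PSPC1, an RNA-binding protein. Chromatin enzymes had 1 gene (1.12%) lower and 27 (30.3%) higher in all Fgf20aHOM libraries, against 7.13% and 11.4% of all well-expressed IDs. Nuclear pore and transport genes had 0 of 48 lower and 12 (25%) higher. Genes of RNA decay and export had 0 of 45 lower and 11 (24.4%) higher. Of the 33 classes, these had the highest shares of genes higher in all Fgf20aHOM libraries. The classes covered 27 of the 150 members (18%) and 26.1% of the other well-expressed IDs.

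Further members were picked by what they do, after their values had been seen. PORCN attaches the lipid that Wnt proteins need for secretion, and it had 58.6, 72.5 and 67.8 CPM in Fgf20aHOM F2, F3 and F4, against 99.3, 93.2, 99.1 and 108 CPM in Cnt 1 to 4. angptl7, a secreted protein of the angiopoietin-like family, had 74.4, 118 and 68.5 CPM in Fgf20aHOM F2, F3 and F4, against 188, 236, 149.7 and 219 CPM in Cnt 1 to 4. DDIT4, an inhibitor of mTOR signalling that is induced by stress, had 27.6, 39.002 and 34.4 CPM in Fgf20aHOM F2, F3 and F4, against 55.5, 64.9, 105 and 55.9 CPM in Cnt 1 to 4. Among the mutants F3 was highest in angptl7 and all 3 lay close together in PORCN. Their log2 fold changes were -0.68 ± 0.21 in PORCN, -1.27 ± 0.29 in angptl7 and -1.13 ± 0.28 in DDIT4 (SE). Among cytoskeletal genes, LIMK2, a kinase that controls actin turnover, had 28.8, 25.7 and 37.9 CPM in Fgf20aHOM F2, F3 and F4, against 48.996, 67.1, 49.02 and 58.98 CPM in Cnt 1 to 4. The light chain of myosin myl6 had 15.9, 13.6 and 16.9 CPM in Fgf20aHOM F2, F3 and F4, against 28.98, 23.03, 32.4 and 59.2 CPM in Cnt 1 to 4. Cnt 4 was the highest control in myl6, and LIMK2 was highest in Cnt 2. Over all 150 members the highest control was Cnt 4 in 52 (34.7%, against 24.2% of the other IDs) and Cnt 1 in 41 (27.3%, against 16.1%). It was Cnt 3 in 39 (26%, against 26.9%) and Cnt 2 in 18 (12%, against 32.8%). Selenoprotein P, which carries selenium between tissues, is encoded by selenop, and it had 15.1, 17.3 and 19.4 CPM in Fgf20aHOM F2, F3 and F4, against 46.3, 62.8, 26.5 and 26.1 CPM in Cnt 1 to 4. Among selenoproteins selenou1a was a member as well, with 44.4, 40.2 and 34.1 CPM in Fgf20aHOM F2, F3 and F4, against 60.2, 62.6, 60.96 and 62.6 CPM in Cnt 1 to 4, and its log2 fold change was -0.73 ± 0.21 (SE), against -1.29 ± 0.33 (SE) in selenop. The controls of selenou1a lay almost on 1 level, whereas those of selenop spread widely.

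**Figure D4:**
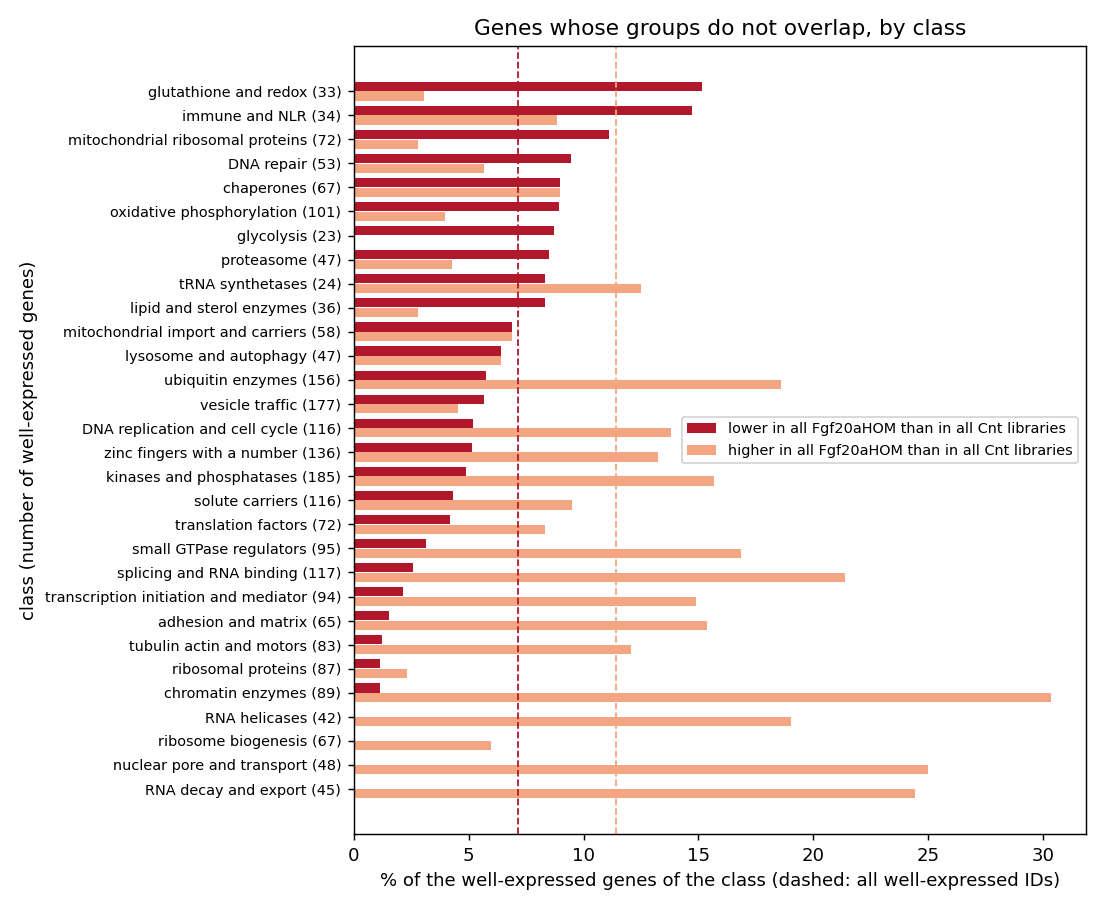
Bars give, for each class with at least 20 well-expressed genes (number in brackets), the percent of its genes lower (dark red) and higher (light orange) in all Fgf20aHOM than in all Cnt libraries. Dashed lines mark the same percents over all well-expressed IDs, 7.13% lower and 11.4% higher. Glutathione and redox genes are at the top with 15.2% lower, and chromatin enzymes have 1.12% lower and 30.3% higher.

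Genes of the Fgf pathway and of hindbrain patterning were compared with the members. Fgf feedback inhibitors and targets gave 0 members among 13 well-expressed genes. None of the 13 was lower in all Fgf20aHOM libraries, against 7.13% of all well-expressed IDs. Fgf receptors and ligands named fgf20 gave 0 of 4, segment boundary genes 0 of 9, segment identity genes 0 of 16 and neurogenesis genes 0 of 16. Members made up only 1.64% of the well-expressed IDs, so 0 members in lists this small says little. None of these genes was lower in all Fgf20aHOM libraries. Higher in all were 3 of the 16 segment identity genes (18.75%, against 11.4% of all well-expressed IDs) and 2 of the 16 neurogenesis genes (12.5%). Segment centre and glial genes gave 1 member of 6. None of the other 5 was lower in all Fgf20aHOM libraries, and their median log2 fold change was 0.03. METRNL (ENSDARG00000101914), whose zebrafish name is metrnla, was this member and the only member from these lists. It encodes a secreted protein and had 48.4, 67.9 and 56.9 CPM in Fgf20aHOM F2, F3 and F4, against 134, 113, 134 and 156 CPM in Cnt 1 to 4. Cnt 2 was its lowest control and F3 its highest mutant, with a log2 fold change of -1.30 ± 0.25 (SE). Its duplicate metrnlb was low throughout, at 4.83, 5.32 and 2.59 CPM in Fgf20aHOM F2, F3 and F4, against 1.64, 1.51, 2.97 and 1.003 CPM in Cnt 1 to 4 (adjusted p = 0.302 by edgeR).

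Duplicates of the members were not used by the choice unless they were well expressed. For 20 members a partner with the same symbol, or with the other letter of an a and b pair, was found, 21 partners in all. Of 18 tested partners edgeR called 0 lower and 0 higher, DESeq2 and limma-voom also called 0, and 1 had an unadjusted edgeR p under 0.05, on the higher side. Their median log2 fold change was -0.18, with 11 of 18 below 0. None was lower in all Fgf20aHOM libraries, 1 was higher in all, and only 5 had at least 5 CPM in all libraries. Whether a member differed from its partner in its fold change was not tested.

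The profilins formed 1 such pair. pfn2b, an actin-binding protein, had 48.04, 51.5 and 344 CPM in Fgf20aHOM F2, F3 and F4, against 822, 651, 687 and 694 CPM in Cnt 1 to 4, and its log2 fold change was -2.36 ± 0.69 (SE). Fgf20aHOM F4 held several times the level of F2 and F3. PFN2 (ENSDARG00000012682) had 1028, 1194 and 1316 CPM in Fgf20aHOM F2, F3 and F4, against 1276, 1224, 1133 and 1408 CPM in Cnt 1 to 4, with overlapping groups and a log2 fold change of -0.18 ± 0.21 (SE, adjusted p = 0.711 by edgeR). The partner of hmgn1b, hmgn1a, had 1918, 3794 and 2481 CPM in Fgf20aHOM F2, F3 and F4, against 2603, 2461, 2639 and 3452 CPM in Cnt 1 to 4, again with overlapping groups and a log2 fold change of -0.11 ± 0.29 (SE, adjusted p = 0.884 by edgeR). Both members were low in F2 and F3 and several times higher in F4. PFN2 was highest in F4 as well, by a small margin, and hmgn1a was highest in F3.

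Some partners, such as those of badb and syngr2a, stayed below 5 CPM in all libraries. badb, a pro-apoptotic protein of the BH3-only kind, had 12.1, 10.4 and 13.04 CPM in Fgf20aHOM F2, F3 and F4, against 23.3, 34.4, 27.6 and 29.4 CPM in Cnt 1 to 4, and its log2 fold change was -1.36 ± 0.25 (SE), while bada was at 0.834 to 2.37 CPM in all libraries. syngr2a, a synaptogyrin of vesicle membranes, had 5.88, 8.87 and 6.54 CPM in Fgf20aHOM F2, F3 and F4, against 25.5, 15.95, 25.6 and 23.7 CPM in Cnt 1 to 4, and its log2 fold change was -1.76 ± 0.32 (SE). PCYT1A, the enzyme that sets the rate of phosphatidylcholine synthesis, carried its name on 2 IDs. The member ENSDARG00000004492 had 19.8, 11.6 and 17.7 CPM in Fgf20aHOM F2, F3 and F4, against 35.9, 45.4, 33.3 and 39.3 CPM in Cnt 1 to 4 (log2 fold change -1.33 ± 0.26, SE). The ID ENSDARG00000011233 had 2.97, 10.8 and 13.3 CPM in Fgf20aHOM F2, F3 and F4, against 2.29, 5.09, 7.74 and 4.66 CPM in Cnt 1 to 4. The second ID overlapped between the groups, with a log2 fold change of 0.81 ± 0.55 (SE, adjusted p = 0.525 by edgeR).

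**Figure D5:**
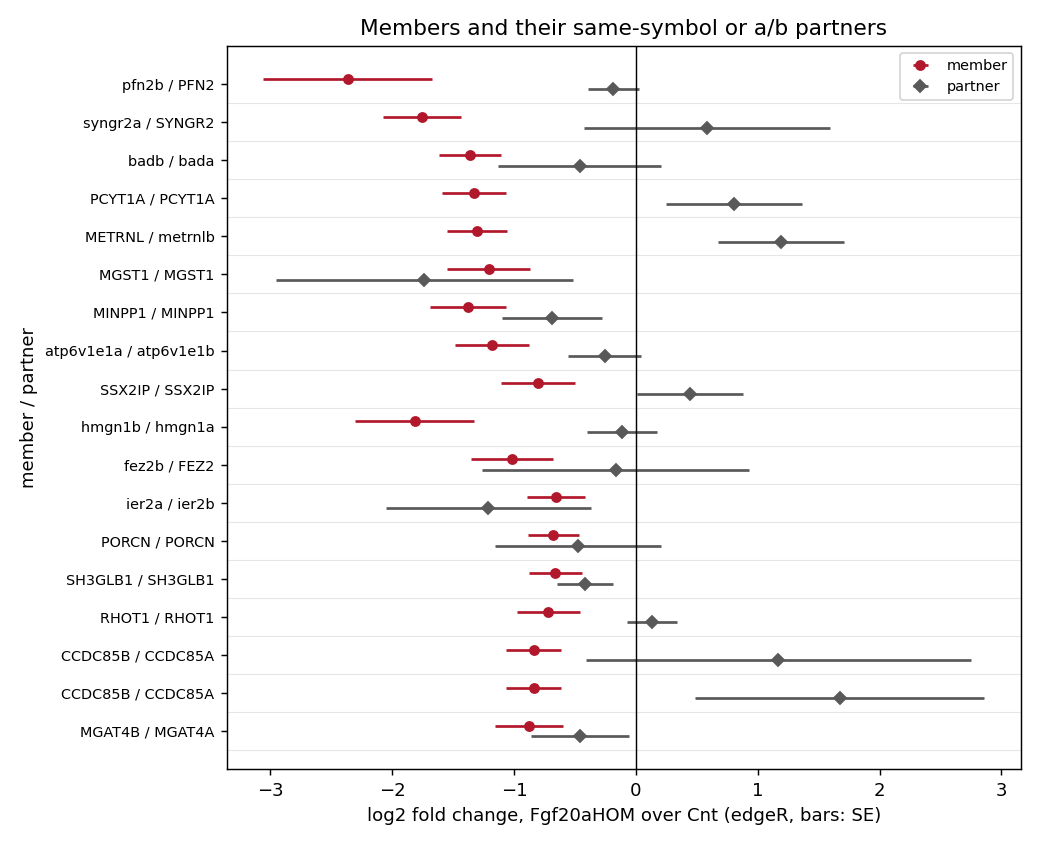
Log2 fold changes (Fgf20aHOM over Cnt, x axis) with their SE are shown for the members that have a tested partner (red circles) and for the partner itself (grey diamonds), 1 pair per row. All members lie left of 0 by construction. The 18 partners lie on both sides, 11 of them below 0, with a median of -0.18.

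The position of the members was read from the order of protein-coding genes in the RefSeq annotation of assembly GRCz12tu, in which 105 of the 150 could be placed. No members were next to each other, and 6 pairs were at most 10 genes apart. They included zgc:174703, zgc:174314 and si:dkey-57k17.1, with 5 and 8 genes between neighbours, and TAF13 and DPM1, which were 2 genes apart. si:dkey-57k17.1 had 57.8, 31.9 and 24.7 CPM in Fgf20aHOM F2, F3 and F4, against 208, 122, 114 and 136 CPM in Cnt 1 to 4, and its log2 fold change was -2.02 ± 0.35 (SE). zgc:174703 had 49.97, 47.6 and 39.4 CPM in Fgf20aHOM F2, F3 and F4, against 71.04, 70.4, 63.8 and 87.7 CPM in Cnt 1 to 4, and its log2 fold change was -0.78 ± 0.23 (SE). Of 125 tested genes that flanked a member, edgeR called 0 in either direction, and 1 was lower at an adjusted p of at most 0.05. An unadjusted p under 0.05 was found in 24, 15 of them lower, but the share of all tested genes at that p is not given here. DESeq2 called 3 lower and 0 higher, and limma-voom 0. Of all genes DESeq2 called 376 lower and limma-voom 77. The flanking genes had a median log2 fold change of -0.13. Of the 70 well-expressed ones, 7 (10%) were lower in all Fgf20aHOM libraries, against 7.13% of all, a share that includes the members.

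On the chromosome of fgf20a itself lay 10 of the 105 members that could be placed. CFAP97 was 14 genes away from fgf20a, TMEM192 49 genes and brat1 90 genes. CFAP97 had 14.1, 19.3 and 18.8 CPM in Fgf20aHOM F2, F3 and F4, against 27.7, 31.2, 45.8 and 43.04 CPM in Cnt 1 to 4, and TMEM192 had 5.92, 10.02 and 12.4 CPM in Fgf20aHOM F2, F3 and F4, against 18.3, 17.2, 20.2 and 32.4 CPM in Cnt 1 to 4. Within 100 genes on either side, 6 of 57 well-expressed genes (10.5%) were lower in all Fgf20aHOM libraries, and on the whole chromosome 33 of 323 (10.2%). Over all 6954 well-expressed genes counted in this comparison it was 499 (7.18%). Members made up 3 of the 57 genes (5.26%) near fgf20a and 10 of the 323 (3.10%) on its chromosome, against 105 of these 6954 (1.51%). Whether linkage or sequence differences between the lines take part was not tested.

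Markers of other tissues were compared with the members, since a dissection can carry tissue along. None of the 15 tissue lists held a member. The lists of muscle, blood, lens and eye, and hatching gland and yolk had 0 well-expressed genes and could not hold one. The other lists had only 1 to 5 well-expressed genes each, so the absence of members says little about tissue carried along. No list had a summed level that was lower in all Fgf20aHOM libraries. Of the 6 hindbrain progenitor markers edgeR called 1 higher (16.7%, against 0.230% of all tested genes) and 0 lower. The 4 neuron markers summed to 1414, 1136 and 1356 CPM in Fgf20aHOM F2, F3 and F4, against 882, 1016, 942 and 734 CPM in Cnt 1 to 4, and 0 of them was at 0 in any library. The pharyngeal arch list, with 1 gene, was also higher in all Fgf20aHOM libraries, at 14.5 to 27.04 CPM in Fgf20aHOM and 5.602 to 13.005 CPM in Cnt. The 6 otic vesicle markers summed to 125, 144 and 161 CPM in Fgf20aHOM F2, F3 and F4, against 244, 152, 485 and 169 CPM in Cnt 1 to 4, where only Cnt 2 overlapped the mutants. Of these 6, edgeR called 0 and found 2 lower at an unadjusted p under 0.05. DESeq2 called 1 lower, against 376 of all genes. The 7 epidermal markers varied widely within the groups, at 2833 to 8146 CPM in Fgf20aHOM and 1050 to 19899 CPM in Cnt. The 4 hatching gland and yolk markers reached 183 CPM in Cnt 4 and were below 10 CPM in the other 6 libraries. Their part in the level of the members was not tested. Without Cnt 4 the median log2 fold change of the members was -1.04, and without Cnt 2 it was -1.27.

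The last members inside the limit were TPD52 and trim33l, with a ratio of 1.24 each. TPD52 had 7.58, 7.89 and 6.12 CPM in Fgf20aHOM F2, F3 and F4, against 17.6, 9.77, 11.5 and 18.8 CPM in Cnt 1 to 4. The first genes outside were mxra7, with 14.1, 15.4 and 15.05 CPM in Fgf20aHOM F2, F3 and F4, against 18.996, 19.96, 27.9 and 22.8 CPM in Cnt 1 to 4, and apof, with 9.87, 18.5 and 23.5 CPM in Fgf20aHOM F2, F3 and F4, against 58.5, 41.2, 31.2 and 29.1 CPM in Cnt 1 to 4. In all 4 the groups were apart, so the limit of 150 did not follow a break in the ratios.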

How the data were processed

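RNA of 7 single dissected hindbrains was amplified with the NuGEN Ovation RNA-Seq System V2, and Nextera XT libraries were sequenced with paired reads of 75 bases. The authors aligned reads with STAR 2.5.1b through RSEM 1.2.31 to GRCz10 with Ensembl release 89, and the deposited values are their RSEM expected counts per gene as whole numbers, not scaled. RSEM shares out reads that fit several genes, so similar copies are uncertain. Whether counting used strand, or molecular identifiers, is not given in the sources used here. Counts had been planned for, and the count test was kept.

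Cnt columns carried the numbers of their titles. Fgf20aHOM columns are numbered F2 to F4 and titles 1 to 3, so the group of each was known but not its sample. CPM was computed from the total count of each library. Separate embryos were the replicates.

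All 19589 genes that passed filterByExpr were fitted with the edgeR 4.0.16 quasi-likelihood test (R 4.3.3, TMM factors, genotype as the only term, two-sided, Benjamini-Hochberg adjustment). SEs were worked out from each fold change with its F value. The limits of a call were those of the study, which applied them with DESeq2 and not with edgeR. At these limits DESeq2 called 376 genes and 88 members lower here, against 41 and 13 with edgeR. No share of all tested genes with an unadjusted p under 0.05 is given, so counts at that limit have no background. For DESeq2 and limma-voom the number of all genes called lower is given, and not the share. Alternatives were DESeq2 1.42.0, limma-voom 3.58.1 with sample weights, other scalings and filters, and each library left out. The script was tested on simulated data.

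The members and lists were chosen with earlier results of these data known. Genes with a symbol were named by their ratio, control level, call, list, partner or place at the limit, and IDs without a symbol only among the 5 highest ratios. Others named are said to be picked after their values were seen. Of all IDs, 26350 (81.9%) had a symbol in the names table. Gene order came from RefSeq on GRCz12tu by symbol, which is another build, so no coordinates are given. In it 7123 of 9173 well-expressed IDs were placed, and the comparison around fgf20a counted 6954 well-expressed genes.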

Additional observations from a re-analysis of the deposited data

Results flagged for a closer look

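Of 70 measures with 4 Cnt libraries (levels of named members and summed tissue markers), 6 had 1 library whose gap to the nearest other made up more of the whole range than Dixon's critical value for 4 samples. Chance flags about 1 in 20 groups, or 3.5 of 70, where the groups were not chosen by their values. The members were chosen partly on their Cnt levels, so this rate need not hold for them. Among members, si:dkey-16p19.5 was at 20.6 CPM in Cnt 4 and at 12.98 to 13.3 CPM in the other Cnt libraries. ZBTB1 was at 18.98 CPM in Cnt 1, with 34.9 to 38.2 CPM in the others, and trim33l was at 32.4 CPM in Cnt 1, with 29.7 to 29.97 CPM in the others. Among the tissue lists, floor plate markers summed to 146 CPM in Cnt 2 and 36.7 to 44.2 CPM in the other Cnt libraries, and blood markers to 2.22 CPM in Cnt 2 and 0.0944 to 0.418 CPM in the others. Hatching gland and yolk markers summed to 183 CPM in Cnt 4 and 0.426 to 1.54 CPM in the other Cnt libraries.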

How the results depend on the processing

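No paired analysis was possible because Fgf20aHOM columns and sample titles are numbered differently. Of all genes, edgeR called 41 lower, against 376 with DESeq2, 77 with limma-voom, 27 scaled by total counts, 64 with no filter on low counts, 18 tested at a minimum of 5 CPM, and 6 to 41 with 1 library left out. Of the members, 13 were called lower, against 88 with DESeq2, 23 with limma-voom and 0 to 11 with 1 library left out, where fewer samples entered the fit. At an adjusted p of at most 0.05 there were 46 members, against 138 with DESeq2 and 10 to 33 with 1 library left out. The median log2 fold change of the members was -1.21, against -1.10 with limma-voom, -1.12 scaled by total counts and -1.27 to -1.04 with 1 library left out. When the rule was applied again, 44 of the 150 members were kept at a minimum of 1 CPM, 96 at 10 CPM and 92 to 115 with 1 library left out. For 53 named members, 689 values under the alternatives kept their direction, with 92 no longer past the threshold and 40 newly past it. Because the choice placed all controls above all mutants in each member, it nearly fixed that direction in advance. The her4 and fbxo44 copies were added as an alternative after the data had been seen. With 3 mutant embryos of 1 line, the members describe these libraries, and depth was no limit at 5 CPM.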
